A study of Homo sapiens with 3 samples.

Results

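The 10 genes described here encode the core of the NF-κB system: the 5 subunits of the transcription factor (NFKB1, NFKB2, REL, RELA and RELB), 4 of its inhibitors or regulators (NFKBIA, NFKBIE, NFKBIZ and TNFAIP3) and the activating kinase IKBKB. They were taken by symbol, with 1 probe set per gene, out of 33616 genes with a value. Each of IKBKB's 2 probe sets was named by this symbol alone, and the brighter one was used. The other 9 genes had 1 probe set each. All 10 passed the filter on dim genes that left 16808 genes tested.

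RNA came from MDA-MB-231, a human triple-negative breast cancer cell line, 48 hours after transfection with siRNA. The arrays numbered 3: cells given siTMPO-AS1 #1, cells given siTMPO-AS1 #2 and cells given siControl, with 1 array for each. Both targeting siRNAs are directed at TMPO-AS1, a long non-coding RNA, and all 3 samples were transfected, so no array shows untreated cells. Nothing in the labels says whether further cultures were made, and no siRNA has a replicate array, so a difference between 2 arrays has no replicate error of its own.

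NF-κB proteins bind DNA as dimers. In resting cells most dimers are held in the cytoplasm by IκB proteins such as NFKBIA, until the IκB kinase complex, of which IKBKB is a catalytic subunit, marks the IκB protein for destruction. The freed dimers then switch on inflammatory and survival genes, and also the genes of their own inhibitors, NFKBIA and TNFAIP3 among them, which close a negative feedback loop. MDA-MB-231 cells are known for NF-κB activity without added stimulus.

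Several of these genes are themselves known targets of NF-κB, which binds DNA at κB sites. The promoter windows of RefSeq (build GRCh38.p14, 250 bases before to 50 after a transcript start) were searched on both strands for the κB consensus decamer, and overlapping matches were kept. The sequences below are shown because they place the element before the genes of the feedback loop and of the subunits whose signals differed most. They are read along the gene's strand, and capitals mark a match on either strand.
NFKBIA, chr14:35404796-35404855, minus strand: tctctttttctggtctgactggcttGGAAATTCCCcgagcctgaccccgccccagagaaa
TNFAIP3, chr6:137867167-137867238, plus strand: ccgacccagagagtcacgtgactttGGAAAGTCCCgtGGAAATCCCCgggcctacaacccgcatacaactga
NFKBIZ, chr3:101827742-101827801, plus strand: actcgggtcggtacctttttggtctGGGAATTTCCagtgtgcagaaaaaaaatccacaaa
NFKB2, chr10:102395674-102395703, plus strand: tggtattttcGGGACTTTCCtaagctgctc
REL, chr2:60881502-60881562, plus strand: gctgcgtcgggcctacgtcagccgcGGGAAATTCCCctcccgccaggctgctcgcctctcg
NFKB1, chr4:102501285-102501344, plus strand: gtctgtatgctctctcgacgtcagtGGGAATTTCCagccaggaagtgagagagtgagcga

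The match began 81 bases before the start in NFKBIA, and 67 and 55 bases before it in TNFAIP3, on the strand opposite to the gene in both. In REL 2 overlapping matches lay 47 and 46 bases before the start, and in NFKB1 the match lay 49 bases before it. NFKB2 has 3 windows in the table, of which 2 held matches. Neither of the 2 RELA windows held one. Of 12 windows for 7 of the genes, 8 (66.7%) held a match, against 11.3% of all 35116 windows. By gene this was 6 of 7, against 3619 of 27305 (13.3%). Among genes tested on the arrays that have a window it was 1598 of 9759 (16.4%). In the list of NF-κB target genes described below it was 12 of 25 (48%). Genes with several windows had more chances, and a match is a match of letters, not evidence of binding in these cells. RELB, NFKBIE and IKBKB are named only.

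**Figure D1:**
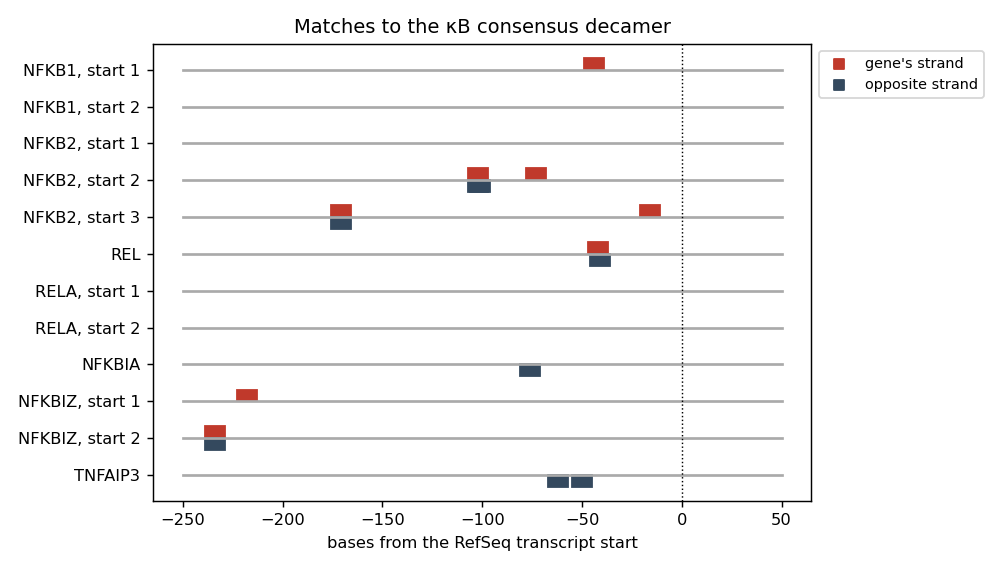
Positions of κB consensus matches (boxes) in each RefSeq promoter window (grey line), in bases from the transcript start (dotted line at 0). Red boxes above the line are on the gene's strand and dark boxes below it on the opposite strand, and genes with several starts have a line for each. Matches in NFKB1, REL, NFKBIA and TNFAIP3 lie no more than 81 bases before the start, and both RELA lines are empty.

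Values below are log2 signals, and log2 ratios are the difference between an siRNA array and the control array, taken in that order. A gene is called lower or higher with 1 siRNA when it differs by at least 1.5-fold, a log2 ratio of 0.58. Background was read from 612 probe sets taken as negative controls from their identifiers alone, since the sources used here do not describe their design. The brightest of them reached 11.67, 9.71 and 10.08 on the siTMPO-AS1 #1, siTMPO-AS1 #2 and control arrays, so the limit below is a working one. Their 95th percentile was 6.55 with siTMPO-AS1 #1, 6.63 with siTMPO-AS1 #2 and 6.40 in control cells. By that measure 8 of the 10 genes were above background on all arrays, while RELB and NFKBIE were above it on 0 arrays. The targeted RNA was also under it: TMPO-AS1 had 4.37 and 4.28 with siTMPO-AS1 #1 and #2 against 4.83 in control cells, so its signals are a weak check of the knockdown. The 4 hybridization spike controls differed from the control array by at most 0.20, and 1 of the 4 labelling spike controls, a dim one, was 0.74 higher with siTMPO-AS1 #2. Of the negative controls themselves, 20.3% were at least 1.5-fold lower and 24.7% higher with siTMPO-AS1 #1, and 17.6% and 25.8% with siTMPO-AS1 #2. Their log2 ratios ranged from -4.70 to 4.98 (SD 0.99) with siTMPO-AS1 #1. With siTMPO-AS1 #2 they ranged from -3.27 to 4.28 (SD 0.95). As for the cells, all 6 mesenchymal-type markers of MDA-MB-231, such as VIM and CD44, were above background on all arrays, against 3 of 8 luminal breast, 1 of 7 immune and 1 of 5 fibroblast markers. ESR1 and PTPRC, defining markers of luminal and immune cells, were under it on all arrays. Of the 6, ANXA1 had log2 ratios of -4.17 and 0.52 with siTMPO-AS1 #1 and #2, CAV1 had 0.53 and -1.39, and the other 4 kept within 1.5-fold of control. Of the other lists' markers above background on all arrays, ERBB2 had 1.25 and -0.18, EPCAM had 0.34 and 2.30, KRT19 had 0.17 and 0.08, CD68 had 1.18 and -0.35, and COL1A1 had 0.19 and 1.22. Their part in the results below was not tested.

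**Figure D2:**
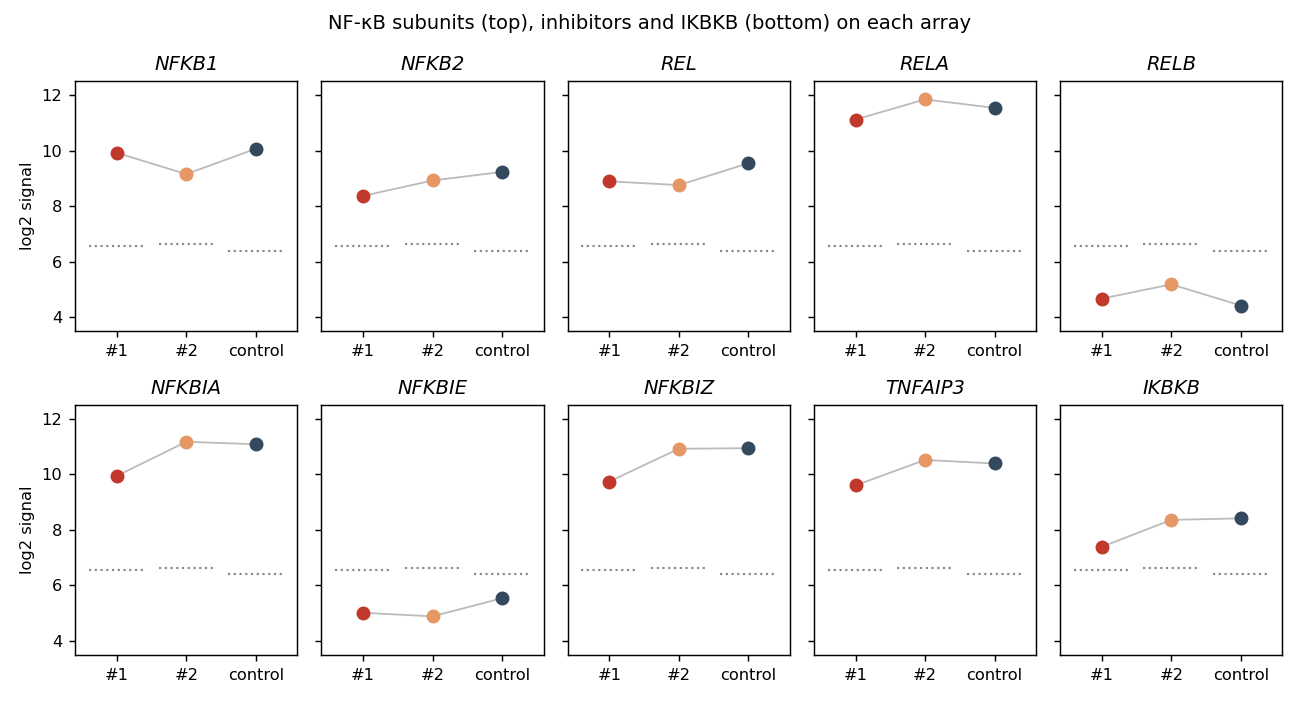
Log2 signal (vertical axis) of each gene on the siTMPO-AS1 #1, siTMPO-AS1 #2 and control arrays, 1 point per array, with the subunits in the upper row. Dotted lines mark the 95th percentile of the negative control probe sets on each array, at 6.55, 6.63 and 6.40, and RELB and NFKBIE lie under it throughout.

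The 2 siRNAs gave different pictures of the pathway core. With siTMPO-AS1 #1, 6 genes were lower than in control cells, by 1.57-fold to 2.30-fold. They were the feedback inhibitors NFKBIA and TNFAIP3, the nuclear IκB gene NFKBIZ, the kinase IKBKB and the subunits NFKB2 and REL. With siTMPO-AS1 #2, NFKBIA, NFKBIZ, TNFAIP3 and IKBKB lay within 1.09-fold of control, and the genes called lower were NFKB1 and REL, beside dim NFKBIE. In counts, 6 of 10 genes were lower and 0 higher with siTMPO-AS1 #1, where 18.8% of all genes tested were lower and 16.6% higher. With siTMPO-AS1 #2, 3 were lower and 1 higher, where 10.4% of all genes were lower and 16.1% higher. Over the 8 genes above background, 6 were lower and 0 higher with siTMPO-AS1 #1, beside 22.4% and 18.5% of the 10653 genes brighter than the negative controls. With siTMPO-AS1 #2 this was 2 lower and 0 higher, beside 11.2% and 16.9%. Both comparisons use the same control array. Here and below, genes brighter than the negative controls are those whose mean of the 3 arrays reached 6.53, the mean of the 3 limits. The 8 genes were above background on every array, as were 9837 of all genes tested. With siTMPO-AS1 #1 the 10 genes had a median log2 ratio of -0.72, beside 0.02 over all genes tested. With siTMPO-AS1 #2 these medians were -0.04 and 0.09. At a stricter limit of 2-fold, 3 genes (NFKBIZ, NFKBIA and IKBKB) were lower and 0 higher with siTMPO-AS1 #1, where 9.94% of all genes were lower and 5.49% higher, and 0 were lower or higher with siTMPO-AS1 #2 (3.83% and 4.6% of all genes).

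Among the inhibitors and regulators, NFKBIA encodes the IκB protein that holds NF-κB dimers in the cytoplasm. NFKBIA had 9.94 with siTMPO-AS1 #1 and 11.17 with siTMPO-AS1 #2, against 11.08 in control cells. It was thus 2.20-fold lower with siTMPO-AS1 #1 (log2 ratio -1.14) and within 1.07-fold of control with siTMPO-AS1 #2 (0.09). NFKBIZ, an inducible nuclear IκB protein that works with NF-κB on selected target genes, had 9.74 and 10.92 with siTMPO-AS1 #1 and #2, against 10.94 in control cells. Its log2 ratio of -1.20 with siTMPO-AS1 #1 was the lowest of the 10 genes, and 7.50% of all genes tested had a lower one. TNFAIP3 encodes A20, a ubiquitin-editing enzyme that shuts the pathway off upstream of the kinase complex. It had 9.60 and 10.51 with siTMPO-AS1 #1 and #2, against 10.39 in control cells, and was 1.73-fold lower with siTMPO-AS1 #1 (log2 ratio -0.79). In these 3 genes the siTMPO-AS1 #1 array stood apart and the siTMPO-AS1 #2 and control arrays lay close together. NFKBIE, another cytoplasmic IκB protein, had 5.02 and 4.89 with siTMPO-AS1 #1 and #2, against 5.54 in control cells. All of these lie under background, so its log2 ratios of -0.52 and -0.65 do not measure a fold.

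IKBKB, a catalytic subunit of the IκB kinase complex, was lowest on the siTMPO-AS1 #1 array, as NFKBIA, NFKBIZ and TNFAIP3 were. It had 7.39 with siTMPO-AS1 #1 and 8.36 with siTMPO-AS1 #2, against 8.41 in control cells, and was 2.04-fold lower with siTMPO-AS1 #1. Its other probe set was dim on every array (3.17 and 3.32 with siTMPO-AS1 #1 and #2, 2.94 in control cells), and averaging both gave a log2 ratio of -0.40 with siTMPO-AS1 #1, under the 1.5-fold limit. CHUK, the other catalytic subunit, had log2 ratios of -0.11 and 0.22. IKBKG, the regulatory subunit, was under background on all arrays, with 4.98 and 4.55 against 4.52 in control cells. Of the 3 genes of the kinase complex, IKBKB was thus the 1 called with siTMPO-AS1 #1, and 0 were called with siTMPO-AS1 #2.

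**Figure D3:**
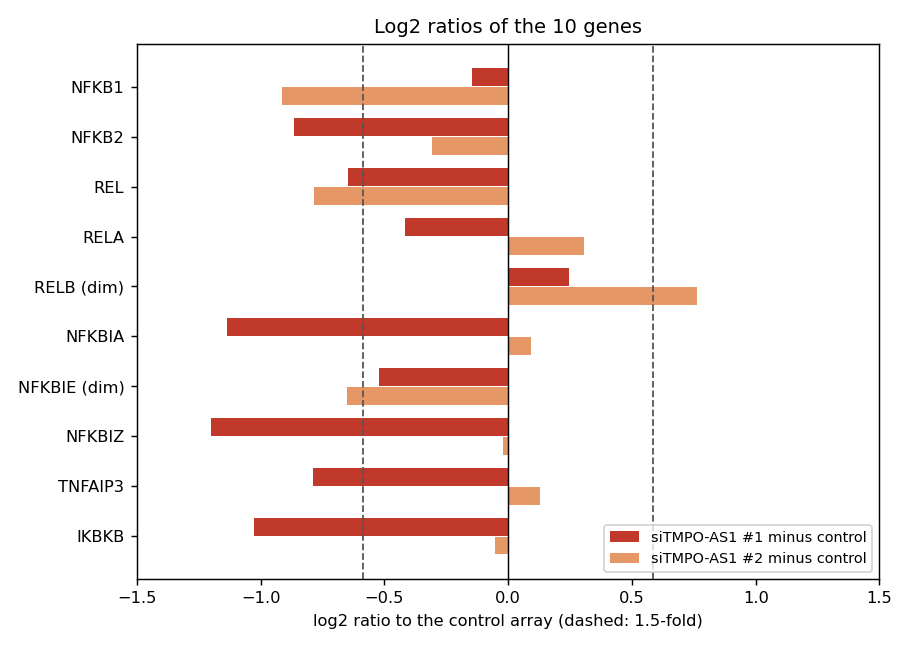
Log2 ratio to the control array (horizontal axis) for each gene, with siTMPO-AS1 #1 above siTMPO-AS1 #2 in each pair of bars and dashed lines at 1.5-fold. NFKBIA, NFKBIZ, TNFAIP3 and IKBKB have long bars with siTMPO-AS1 #1 and bars near 0 with siTMPO-AS1 #2, whereas NFKB1 has the reverse, and genes marked dim lie under background on all arrays.

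Among the subunits, REL was lower with either siRNA. REL (c-Rel), a subunit with its own activation domain that is best known from lymphoid cells, had 8.89 and 8.76 with siTMPO-AS1 #1 and #2, against 9.54 in control cells. Its siTMPO-AS1 #1 and #2 values were 1.57-fold and 1.72-fold lower than control and differed from each other by 1.10-fold. With the arrays centred on the median of all genes, its log2 ratio with siTMPO-AS1 #1 was -0.57, just under the limit. NFKB1, whose precursor is processed to a DNA-binding subunit without an activation domain, showed the difference with siTMPO-AS1 #2. It had 9.92 and 9.15 with siTMPO-AS1 #1 and #2, against 10.06 in control cells, which makes it 1.11-fold and 1.88-fold lower. NFKB2, the precursor gene of the non-canonical branch, had 8.37 and 8.92 with siTMPO-AS1 #1 and #2, against 9.23 in control cells. It was 1.82-fold lower with siTMPO-AS1 #1 and 1.24-fold lower, short of the limit, with siTMPO-AS1 #2.

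RELA, the activating subunit of the classical dimer, was not called with either siRNA. It had 11.11 with siTMPO-AS1 #1 and 11.84 with siTMPO-AS1 #2, against 11.53 in control cells, so the control lay between them (log2 ratios -0.42 and 0.31). RELB, the partner of processed NFKB2 in the non-canonical branch, had 4.67 and 5.19 with siTMPO-AS1 #1 and #2, against 4.42 in control cells. It was the 1 gene counted as higher with siTMPO-AS1 #2, but all 3 signals lie under background and give no fold. Closest to the 1.5-fold limit with siTMPO-AS1 #1 were REL (-0.65), which was called, and NFKBIE (-0.52), which was not. With siTMPO-AS1 #2 they were NFKBIE (-0.65), which was called, and NFKB2 (-0.31), which was not.

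Set directly against siTMPO-AS1 #2, without the control array, siTMPO-AS1 #1 gave lower signals for 5 of the 10 genes and a higher one for 1, where 22.7% of all genes tested were lower and 14.9% higher. The 5 were NFKBIA (2.34-fold), NFKBIZ (2.26-fold), IKBKB (1.96-fold), TNFAIP3 (1.89-fold) and RELA (1.65-fold). NFKB1 was the 1 higher with siTMPO-AS1 #1, by 1.70-fold. At 2-fold 2 were lower and 0 higher, where 12% and 6.16% of all genes were. With 1 array per siRNA this difference has no test.

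**Figure D4:**
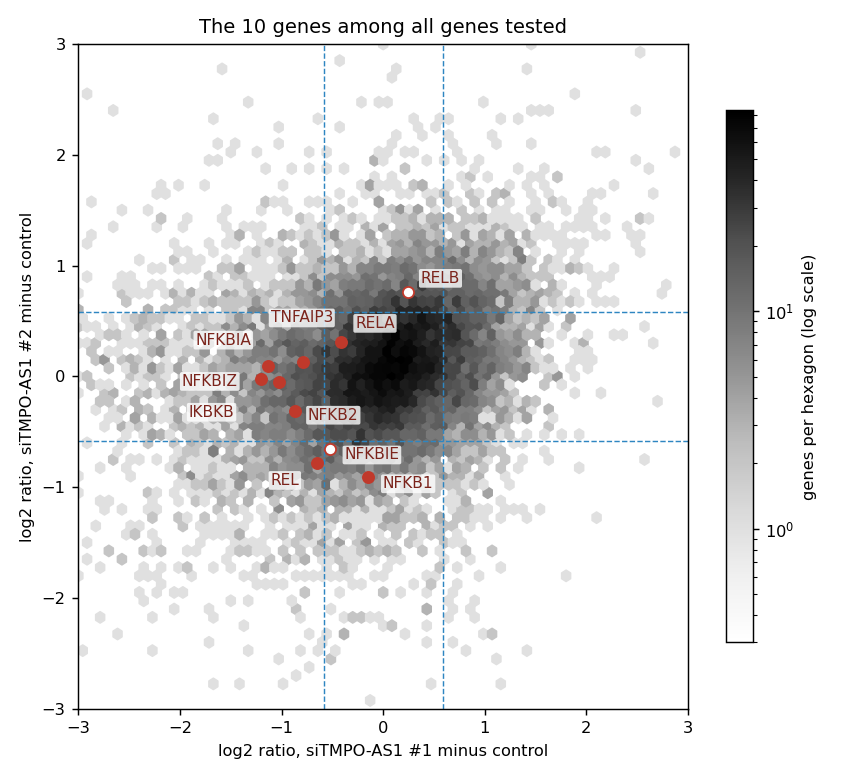
Log2 ratio with siTMPO-AS1 #2 (vertical) against that with siTMPO-AS1 #1 (horizontal), with all genes tested as grey hexagons shaded by number and the 10 genes as red points, open where dim. Both axes subtract the same control array, which by itself stretches the cloud along the diagonal. Dashed lines mark 1.5-fold, 147 genes lie beyond the axes, and NFKBIA, NFKBIZ, TNFAIP3, IKBKB and NFKB2 sit left of the left line at vertical values from -0.31 to 0.13.

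Both siRNA arrays together could be tested against the control array with limma, in a fit whose 1 residual degree of freedom is the difference between the siRNAs. It called 0 of the 10 genes and 0 of all 16808 (0% called) at an adjusted p of 0.05. At an unadjusted p under 0.05 there were 0 of the 10 and 261 of all genes. REL had the smallest error relative to its change, with a mean log2 ratio of -0.72 (SE 0.44, adjusted p = 1.00 in limma, lower on 2 of 2 arrays). NFKBIA had -0.52 (SE 0.67) and NFKBIZ had -0.61 (SE 0.66), with errors larger than the change, because their siRNA arrays differed. The count of 0 does not show that the genes did not differ.

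The wider pathway held 84 listed genes with a value, of which 71 were tested. With siTMPO-AS1 #1, 31 of the 71 (43.7%) were at least 1.5-fold lower and 5 (7.04%) higher, with a median log2 ratio of -0.42, where 18.8% of all genes tested were lower and 16.6% higher. With siTMPO-AS1 #2, 14 (19.7%) were lower and 10 (14.1%) higher, with a median of -0.05, where 10.4% of all genes were lower and 16.1% higher. These shares over all genes are the background for each list that follows. limma called 0 of them. The lists were read by their counts and medians and were not tested as lists. Their counts include genes under background on all arrays. Of 51 listed genes brighter than the negative controls, 25 (49.0%) were lower and 4 (7.84%) higher with siTMPO-AS1 #1. With siTMPO-AS1 #2, 11 (21.6%) were lower and 8 (15.7%) higher. Over all 10653 such genes, 22.4% were lower and 18.5% higher with siTMPO-AS1 #1, and 11.2% and 16.9% with siTMPO-AS1 #2. The brighter genes were chosen by the mean of the 3 arrays, so some were under background on the array called lower. Of the 84 listed genes, 42 were above background on all arrays.

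Receptors that feed the pathway lay mostly below control with siTMPO-AS1 #1. Of 13 tested, 9 (69.2%) were lower and 0 higher with siTMPO-AS1 #1 (median -0.96), beside 18.8% and 16.6% of all genes. With siTMPO-AS1 #2, 5 (38.5%) were lower and 1 (7.69%) higher (median -0.25), beside 10.4% and 16.1%. Of 11 receptors brighter than the negative controls, 9 (81.8%) were lower and 0 higher with siTMPO-AS1 #1, beside 22.4% and 18.5%. With siTMPO-AS1 #2 it was 4 (36.4%) and 1 (9.09%), beside 11.2% and 16.9%. These 11 were chosen by the mean of the 3 arrays, and 7 receptors were above background on all arrays. CD40, TLR2 and TLR4 entered while under background with siTMPO-AS1 #1, and LTBR while under it with siTMPO-AS1 #2. Their lower calls there partly follow from that choice, so these counts are not separate support. The interleukin receptor gene IL1R1 was 2.67-fold and 2.02-fold lower with siTMPO-AS1 #1 and #2. CD40, a receptor of the tumour necrosis factor family, was under background with siTMPO-AS1 #1 and had 6.96 with siTMPO-AS1 #2 against 7.67 in control cells. LTBR, which signals to the non-canonical branch, had 6.71 with siTMPO-AS1 #1 and 6.61, just under background, with siTMPO-AS1 #2, against 7.34 in control cells. It was at least 1.63-fold lower with siTMPO-AS1 #2. The Toll-like receptor genes TLR2 and TLR4 were under background with siTMPO-AS1 #1 and above it on the other arrays, which puts them at least 2.34-fold and at least 3.93-fold lower there, taking the background level as the floor. TNFRSF12A had log2 ratios of -0.96 and -0.35, while TLR6 (0.07 and -0.25) and IL17RA (0.05 and 0.37) lay near control.

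Of 17 signalling adaptors and ubiquitin ligases tested, 6 (35.3%) were lower and 1 (5.88%) higher with siTMPO-AS1 #1 (median -0.34), beside 18.8% and 16.6% of all genes. With siTMPO-AS1 #2, 2 (11.8%) were lower and 1 (5.88%) higher (median -0.14), beside 10.4% and 16.1%, so the share of lower genes among all 17 was near the background. Of 11 brighter than the negative controls, 5 (45.5%) were lower and 0 higher with siTMPO-AS1 #1, beside 22.4% and 18.5%. With siTMPO-AS1 #2, 2 (18.2%) of the 11 were lower and 1 (9.09%) higher, beside 11.2% and 16.9%. TRAF5 had log2 ratios of -1.60 and -0.19, and MYD88, the adaptor of Toll-like and interleukin receptors, had -1.03 and -0.43. UBE2V1 had 0.21 and -0.12, and TICAM1, higher with siTMPO-AS1 #1 by the fold rule, was under background on all arrays. The list of kinases and their partner proteins had 10 genes tested, among them the non-kinases IKBKG, TAB2 and TAB3. Of these 10, 2 (20%) were lower and 1 (10%) higher with siTMPO-AS1 #1, near the 18.8% and under the 16.6% of all genes, and 0 were lower and 1 higher with siTMPO-AS1 #2. MAP3K7 (TAK1), the kinase that activates the IκB kinase complex, was 2.29-fold lower with siTMPO-AS1 #1 and within 1.04-fold of control with siTMPO-AS1 #2. TAB2, which couples MAP3K7 to ubiquitin chains, had 1.35 and -0.28, and MAP3K8 had 0.15 and 1.10. IKBKE, lower with siTMPO-AS1 #1 by the fold rule, was above background on the control array alone.

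Of 8 genes tested of the ubiquitin brake, in which TNFAIP3 acts, 2 (25%) were lower and 2 (25%) higher with siTMPO-AS1 #1, and the same numbers with siTMPO-AS1 #2. Over all genes these shares were 18.8% and 16.6% with siTMPO-AS1 #1 and 10.4% and 16.1% with siTMPO-AS1 #2. With so few genes the counts do not set the list apart, and the values of single genes follow. OTULIN, which removes linear ubiquitin chains, had 8.60 and 9.63 with siTMPO-AS1 #1 and #2, against 10.86 in control cells, and was 4.79-fold and 2.36-fold lower. CYLD, a deubiquitinase that also restrains NF-κB, had 9.86 and 9.94 with siTMPO-AS1 #1 and #2, against 8.73 in control cells, and was 2.19-fold and 2.32-fold higher. TNIP1, a binding partner of A20, was 2.09-fold and 1.65-fold lower. TAX1BP1, another partner, had log2 ratios of 0.41 and 1.12, USP21 had 1.15 and -0.05, ITCH had -0.42 and 0.50, TNIP2 had -0.19 and 0.02, and OTUD7B, near background on all arrays, had 0.01 and 0.14. In limma OTULIN had a mean log2 ratio of -1.75 (SE 0.61, adjusted p = 1.00) and CYLD had 1.17 (SE 0.44, adjusted p = 1.00). Among other IκB-related genes, NKRF had -0.48 and 0.29 and COMMD1, under background with siTMPO-AS1 #2, had 1.11 and -0.22, while NFKBID was under background on all arrays. IKBIP, whose product binds IKBKB and whose gene lies near TMPO, was 1.71-fold and 1.86-fold lower, and TMPO was 1.85-fold and 1.43-fold lower.

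The list of NF-κB target genes had its larger count of lower genes with siTMPO-AS1 #1, and members on both sides of control with siTMPO-AS1 #2. Of 20 tested, 11 (55%) were lower and 0 higher with siTMPO-AS1 #1 (median -0.86), beside 18.8% and 16.6% of all genes. With siTMPO-AS1 #2, 5 (25%) were lower and 5 (25%) higher (median 0.13), beside 10.4% and 16.1%. Of 14 target genes brighter than the negative controls, 8 (57.1%) were lower and 0 higher with siTMPO-AS1 #1, beside 22.4% and 18.5%. With siTMPO-AS1 #2 it was 3 (21.4%) and 3 (21.4%), beside 11.2% and 16.9%. These 14 were chosen by the mean of the 3 arrays, and 10 target genes were above background on all arrays. CXCL8 entered while under background with siTMPO-AS1 #1, and CCL2 and TNFAIP2 while under it with siTMPO-AS1 #2. Their lower calls there partly follow from that choice. Folds given as at least a value again take the background level, a working limit, as the floor. The chemokine gene CXCL8 was under background with siTMPO-AS1 #1 and had 10.01 with siTMPO-AS1 #2, against 10.13 in control cells. On that floor it was at least 11.9-fold lower with siTMPO-AS1 #1. CCL2, another chemokine gene, was at least 13.2-fold lower with siTMPO-AS1 #2 and level with control with siTMPO-AS1 #1. IL6 had log2 ratios of -0.27 and 1.42. IL1B was above background with siTMPO-AS1 #2 alone, at least 2.22-fold over control. CD83 was 2.40-fold and 1.75-fold lower, and IRF1 was under background with either siRNA, at least 1.68-fold and 1.58-fold lower. A κB match in the promoter window went with small differences over all genes, towards lower signals with each siRNA, which were not tested. Of 1598 genes tested with a match, 25% were lower with siTMPO-AS1 #1 and 12.8% with siTMPO-AS1 #2, beside 22.9% and 11.1% of 8161 without one. Shares of higher genes were 14.58% with siTMPO-AS1 #1 and 17.27% with siTMPO-AS1 #2, beside 17.51% and 18.99% without a match. Median log2 ratios were -0.08 and 0.11 with a match, beside -0.02 and 0.13 without one.

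**Figure D5:**
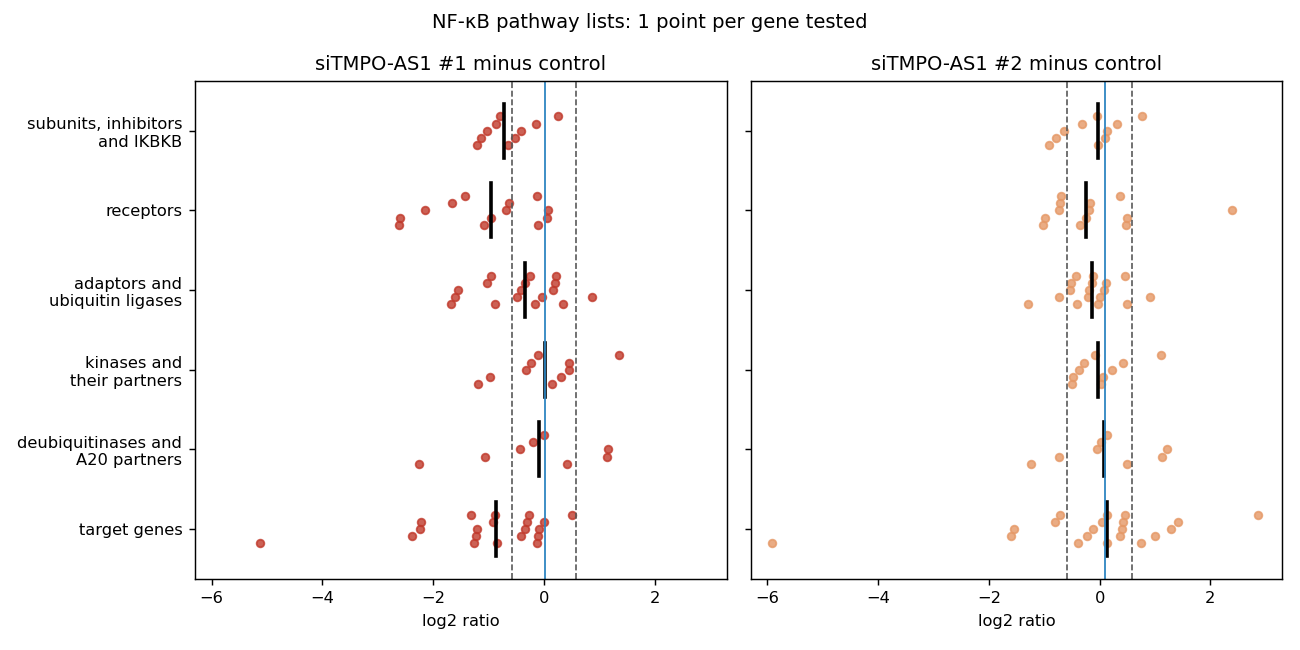
Log2 ratios to the control array (horizontal axis) of the genes tested in each NF-κB list, 1 point per gene, with siTMPO-AS1 #1 on the left and #2 on the right. Black bars are list medians, the blue line is the median of all genes tested and dashed lines mark 1.5-fold. Receptors and target genes have medians of -0.96 and -0.86 on the left and of -0.25 and 0.13 on the right.

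Other genes had ratios like those of NFKBIZ and NFKBIA. Nearest to NFKBIZ in its 2 log2 ratios were CLMP (-1.20 and -0.03), C1orf185 (-1.19 and -0.03) and ZNF354A (-1.19 and -0.04). Nearest to NFKBIA were TMEM65 (-1.14 and 0.08), CHRAC1 (-1.13 and 0.06) and SLC35B3 (-1.11 and 0.12). Likeness was the Euclidean distance over the 2 ratios, and 225 of 16012 genes lay within 0.25 of NFKBIZ and 238 within 0.25 of NFKBIA.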

How the data were processed

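The authors deposited a log2 signal for every probe set on every array. Per the submitters' processing notes it was made with RMA, in Affymetrix Expression Console. The sources used here name no versions, annotation or build. RMA forces the arrays to 1 distribution, so a shift of all genes cannot be seen. Some probe sets (1144 of 138745) exceed 16 on all arrays, the log2 limit of a 16-bit scan, so a further transformation is possible and the folds hold on that scale alone. Arrays have no read depth, and their number (3) limits the precision.

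Probe sets with exactly 1 symbol in the platform annotation (36176; 1119 had several and 101450 none) were kept, and the brightest stood for its gene. Genes whose mean reached the median of 4.42 were tested. Each siRNA array minus the control array has no test. limma 3.58.1 (R 4.3.3; lmFit, eBayes, Benjamini-Hochberg over 16808 genes, two-sided) compared both siRNA arrays with the control array, which is assumed to vary like them. Its p-values measure only the spread between these arrays, which may be technical and includes differences between the siRNAs.

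The members and lists were chosen with earlier results of these data known. The genes named were the 10 members, TMPO-AS1, TMPO, IKBIP, the IκB kinase complex, all tested deubiquitinases, A20 partners and IκB-related genes, and from each other list those past 1.5-fold in 1 direction with each siRNA, plus the 2 highest and the 2 lowest by mean ratio. The cell type markers named, BIRC2, ICAM1, IL1RAP and PLAU were added after their values were seen, as was the background level from negative controls. Alternatives were the mean of all probe sets, centring, filters, a fold of 2, an intensity trend and 2 added later.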

Additional observations from a re-analysis of the deposited data

Results flagged for a closer look

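Of the 59 pathway genes and members brighter than the negative controls, 4 (6.78%) lay at least 1.5-fold from control in opposite directions with the 2 siRNAs. Over all 10653 such genes it was 459 (4.31%), so the count does not set these genes apart. The difference was not tested, since each siRNA has 1 array. IL1RAP, the accessory chain of the interleukin 1 receptor, had 7.31 with siTMPO-AS1 #1 and 12.31 with siTMPO-AS1 #2, against 9.93 in control cells, a difference of -5.001 (siTMPO-AS1 #1 minus #2, log2). PLAU, the urokinase gene, had 11.83 and 15.08 against 14.07 in control cells, a difference of -3.25. BIRC2, a ubiquitin ligase of the non-canonical branch, had 10.43 and 13.01 against 12.10 in control cells, a difference of -2.58. ICAM1, an adhesion molecule and NF-κB target, had 7.29 and 9.49 against 8.20 in control cells, a difference of -2.20.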

How the results depend on the processing

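No paired analysis was possible because each group has 1 array. At a fold of 2 in place of 1.5, 3 genes were lower with siTMPO-AS1 #1, and 0 were lower and 0 higher with siTMPO-AS1 #2. Set against siTMPO-AS1 #2, siTMPO-AS1 #1 was lower for 2 and higher for 0. With siTMPO-AS1 #2 the count of higher genes was 0, in place of 1, under the stricter filter (75th percentile, 7.79) and among genes brighter than the negative controls, both of which leave out RELB. Scaling to equal spike controls, added after seeing the data, moved the median of all genes with siTMPO-AS1 #1 by -0.12 and put NFKBIE past 1.5-fold there (-0.64). Otherwise the counts stayed within 1.5 times and the medians within 0.20 of those reported under the mean of all probe sets, centring, both filters, no filter and the spike scaling. limma called 0 of the genes it tested under all 7 alternatives run (lowest adjusted p 1.00), which were 8 of the 10 under the stricter filter and among the brighter genes and all 10 otherwise, with 88 to 787 genes of all tested at an unadjusted p under 0.05. The number of arrays, and signal over background for RELB and NFKBIE, limit what these values can show.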
